A study of Homo sapiens with 9 samples.

Results

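The cluster of clade B serpins on human chromosome 18 was described in MDA-MB-231, a triple-negative breast cancer cell line of human origin, in which CTDP1 was targeted with short hairpin RNAs. The CTDP1 product is a phosphatase that dephosphorylates the tail of the large subunit of RNA polymerase II. All intervals of the deposited files that lay wholly on hg19 chromosome 18 between 61.14 and 61.68 Mb were taken, and 14 of 55527 intervals met that rule. They hold the 10 clade B serpin genes of the cluster, in the order SERPINB5, SERPINB12, SERPINB13, SERPINB4, SERPINB3, SERPINB11, SERPINB7, SERPINB2, SERPINB10 and SERPINB8, and 4 further intervals that carry no name here. The groups were cells with the hairpin shCTDP1-#1, cells with the hairpin shCTDP1-#2 and cells with the scrambled hairpin shScr, with 3 libraries each. All 9 libraries came from the same line, infected with a lentivirus made in 293FT cells and selected with puromycin, per the labels' protocols. The labels do not state whether libraries of 1 group were separate cultures, so p-values reflect variation among these libraries, which could be technical alone. Values are TPM (transcript abundance), a level that is scaled for transcript length and to the same total in each library.

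Serpins are protease inhibitors that offer a loop of their own as bait: the protease cuts the loop, the serpin refolds, and both end as an inactive complex. Clade B serpins lack a classical secretion signal and act mainly inside cells, where they check serine or cysteine proteases. Several genes of the chromosome 18 cluster are known from squamous epithelium and skin, SERPINB2 and SERPINB8 have a wider range, and SERPINB5 (maspin) is known as a member without protease inhibitory activity.

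The files give positions and no gene names. Of the 10 serpins, 7 were assigned because an interval of the window had exactly the span of that gene in GENCODE v29, a span that no other chromosome 18 gene there and no other chromosome 18 interval of the files had. SERPINB11, SERPINB7 and SERPINB8 have other spans in GENCODE v29, which is of build GRCh38, and were assigned by the order of the cluster on hg19. For this the intervals were ordered by their ends, and SERPINB8 was taken as the last of the unassigned intervals after SERPINB10. The interval taken as SERPINB11 starts before that of SERPINB3 and holds all 6767 bases of SERPINB3. No coordinate was converted between builds. The level of CTDP1, and markers of the line, were not analysed here for the same lack of names.

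The genes of the cluster that the cells used were at its distal end. Averaged over the 9 libraries, SERPINB8 was at 47.0 TPM, above 92.8% of all intervals, and SERPINB2 at 23.7 TPM, above 88.5%. SERPINB7 averaged 1.12 TPM, and the other 7 serpins stayed under 1 TPM in every library. SERPINB2 and SERPINB8 together made up 95.8% to 97.0% of the summed TPM of the 10 serpins in shCTDP1-#1 libraries, 99.0% to 99.4% in shCTDP1-#2 libraries and 97.1% to 99.1% in shScr libraries. The sum over the 10 serpins was 78.2 ± 3.9 TPM with shCTDP1-#1, 78.5 ± 1.0 TPM with shCTDP1-#2 and 59.9 ± 2.0 TPM with shScr (SD, n = 3 each). The sum over all 14 intervals, which includes an unnamed interval that overlaps SERPINB8, was 85.3 to 112.8 TPM with shCTDP1-#1, 84.8 to 89.0 TPM with shCTDP1-#2 and 73.9 to 102.3 TPM with shScr, and these ranges overlapped. The libraries are bulk RNA, in which fewer cells that express a gene and less RNA per cell cannot be told apart.

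**Figure D1:**
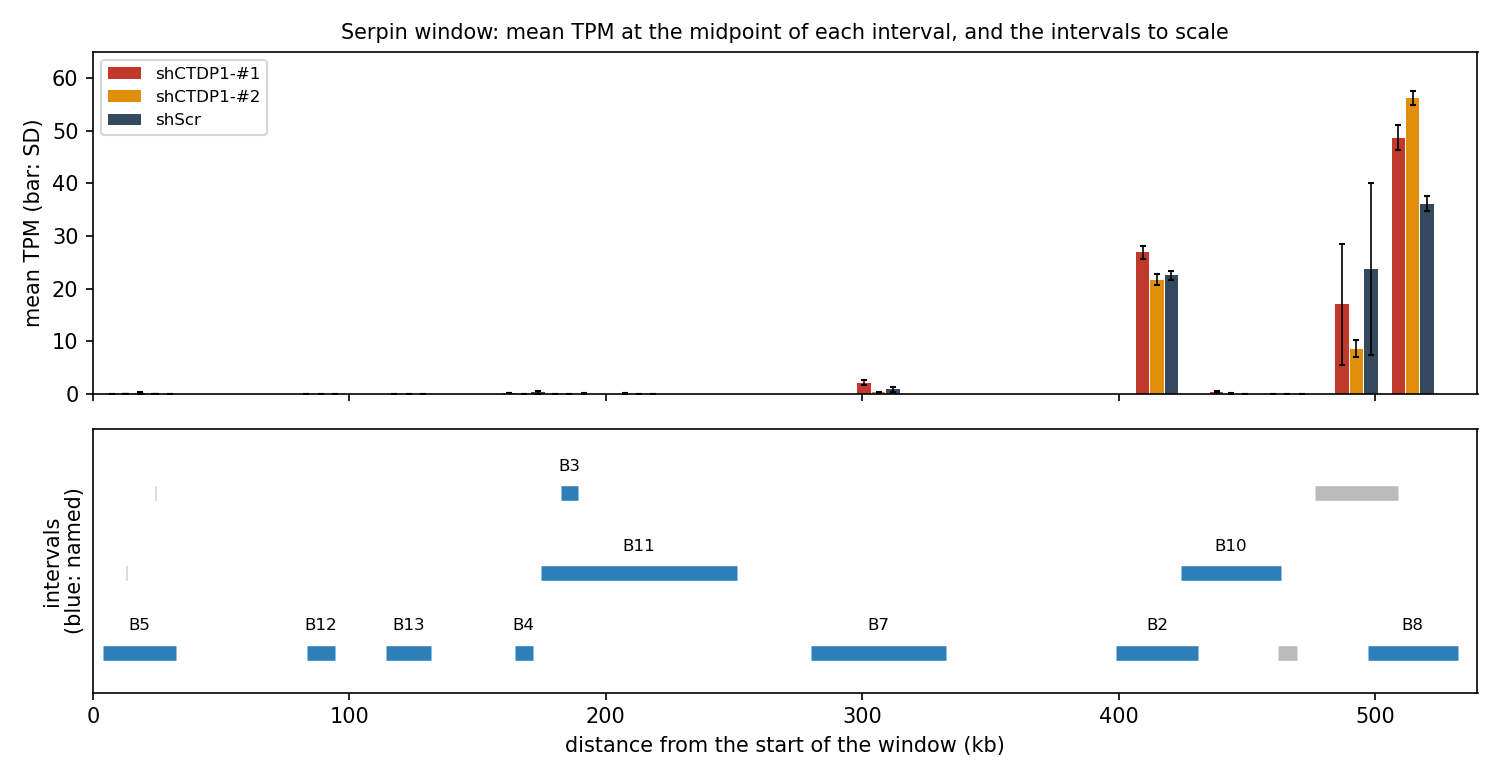
Mean TPM of each interval at its midpoint, with SD over 3 libraries as error bars (top), and the intervals drawn to scale by distance from the start of the window in kb (bottom); blue intervals are the 10 serpins, labelled without the prefix SERPIN, and grey ones have no name. The signal sits at SERPINB2, at SERPINB8 and at the unnamed interval that overlaps SERPINB8, while the proximal genes lie near 0.

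The start-site sequences of the genes that were detected are shown because these genes moved between the groups. They come from RefSeq (GRCh38.p14, plus strand) and run from 250 bases before to 50 after an annotated start. RefSeq entries were matched for 8 of the 10 serpins, with 11 start sites; SERPINB8 and SERPINB2 have 1 each and SERPINB7 has 3. Capitals mark matches to TGANTCA and to TATAAA, on either strand. TGANTCA, with any base as N, is a loose pattern for the site of AP-1 (Fos and Jun) factors. TATAAA holds the letters of the TATA box and was matched at any distance from the start. For SERPINB7 the pair of starts that hold such matches is printed, and the third (chr18:63752807-63753106) held no match to either motif. The deposited values do not say which start the cells used.
SERPINB8, chr18:63969831-63970130: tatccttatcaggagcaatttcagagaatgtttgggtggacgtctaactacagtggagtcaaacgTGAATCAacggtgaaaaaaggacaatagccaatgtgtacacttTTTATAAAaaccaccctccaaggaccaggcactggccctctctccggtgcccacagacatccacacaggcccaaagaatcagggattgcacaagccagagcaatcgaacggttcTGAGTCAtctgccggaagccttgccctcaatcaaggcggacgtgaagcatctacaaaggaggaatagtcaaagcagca
SERPINB2, chr18:63887455-63887754: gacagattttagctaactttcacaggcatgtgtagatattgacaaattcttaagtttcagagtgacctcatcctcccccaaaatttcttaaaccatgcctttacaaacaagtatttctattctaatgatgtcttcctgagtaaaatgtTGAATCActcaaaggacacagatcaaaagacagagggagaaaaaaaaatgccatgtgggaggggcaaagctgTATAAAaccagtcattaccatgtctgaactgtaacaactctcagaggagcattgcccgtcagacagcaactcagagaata
SERPINB7, chr18:63775168-63775467: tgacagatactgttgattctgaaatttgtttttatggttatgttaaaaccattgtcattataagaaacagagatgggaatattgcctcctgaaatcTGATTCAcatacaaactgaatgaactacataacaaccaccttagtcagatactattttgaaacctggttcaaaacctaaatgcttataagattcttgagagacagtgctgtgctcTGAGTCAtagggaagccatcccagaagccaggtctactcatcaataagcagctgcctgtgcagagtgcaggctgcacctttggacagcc
SERPINB7, chr18:63777531-63777830: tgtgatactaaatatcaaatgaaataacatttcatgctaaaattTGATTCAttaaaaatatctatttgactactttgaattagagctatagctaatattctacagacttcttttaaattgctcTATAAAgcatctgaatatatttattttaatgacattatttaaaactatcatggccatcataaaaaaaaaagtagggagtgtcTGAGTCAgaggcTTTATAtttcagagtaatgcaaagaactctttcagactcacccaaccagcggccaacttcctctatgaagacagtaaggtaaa

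SERPINB8 had TGAATCA with its first base 185 bases and TGAGTCA with its first base 28 bases before the start, and TATAAA 140 bases before it. SERPINB2 had TGAATCA 102 bases before its start and TATAAA 30 bases before it. Over the cluster, 7 of the 11 windows of 6 serpins held TGANTCA, which 7.71% of 35116 RefSeq promoter windows of the same length held. In SERPINB5, SERPINB12 and SERPINB2 the only matches were TGAATCA or TGATTCA, with A or T in the middle. TATAAA was in 5 of the 11 windows, at any position and on either strand, against 11.5% of all windows. Its place differed, from 176 bases before the start on the opposite strand in SERPINB12 to 24 bases after the start in SERPINB13. The GC box GGGCGG was in 1 of 11, that of SERPINB5, against 45.0% of all windows, and the letters TGACGTCA (the cyclic AMP response element) in 0 of 11, against 1.85%. All motifs were searched on both strands, and TGANTCA and TGACGTCA read the same on each. No match to one motif overlapped a match to another in the printed windows, while TATAAA matched on both strands in overlapping letters in SERPINB8. The windows of the cluster also differed from all windows in base composition. G and C made up 59.7% of the SERPINB5 window and 29.7% to 53.7% of the other windows of the cluster. The median over all windows was 58.7%. The part of base composition in the shares of matches was not tested. These matches are descriptions of the reference sequence and show neither binding nor a cause of any change.

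SERPINB8, a serpin known to inhibit furin in vitro, was the most abundant of the cluster and was higher with both hairpins. Its level was 51.34, 47.26 and 47.23 TPM in the shCTDP1-#1 libraries, 54.91, 57.54 and 55.99 TPM in the shCTDP1-#2 libraries, and 37.14, 34.58 and 36.71 TPM in the shScr libraries. All 6 knockdown libraries lay above all 3 shScr libraries, and the shCTDP1-#2 libraries lay above the shCTDP1-#1 libraries. The log2 change of TPM + 1 was 0.42 (SE 0.05, limma adjusted p = 4.8e-05) with shCTDP1-#1 and 0.62 (SE 0.05, adjusted p = 2.6e-06) with shCTDP1-#2, both against the same 3 shScr libraries. Changes above that of SERPINB8 were common: 27.3% of the 15011 tested intervals had a larger log2 change with shCTDP1-#1 and 20.1% with shCTDP1-#2. The share of tested intervals whose libraries separated as those of SERPINB8 did was not counted.

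The rise of SERPINB8 has to be read beside the interval that overlaps it. An unnamed interval from 61616535 to 61649008 shares 11850 bases with SERPINB8, and the kit does not mark the strand, so reads in the shared part can be divided between both. That interval was at 30.10, 12.67 and 8.39 TPM with shCTDP1-#1, at 7.35, 10.36 and 8.12 TPM with shCTDP1-#2, and at 11.98, 16.83 and 42.32 TPM with shScr. The shCTDP1-#1 and shScr libraries varied widely and overlapped, and the 3 shCTDP1-#2 libraries lay below all shScr libraries. How many tested intervals separated in this way was not counted. Its log2 change was -0.44 (SE 0.56, limma adjusted p = 0.52) with shCTDP1-#1 and -1.18 (SE 0.56, adjusted p = 0.10) with shCTDP1-#2, so neither passed the test. Single libraries decided these values: without shScr replicate 3 they were 0.06 (adjusted p = 0.92) and -0.67 (adjusted p = 0.25), and with shCTDP1-#1 the value was -0.93 without shCTDP1-#1 replicate 1, -0.81 without shScr replicate 1 and -0.06 without shCTDP1-#1 replicate 3. With both intervals summed, the levels were 55.6 to 81.4 TPM with shCTDP1-#1, 62.3 to 67.9 TPM with shCTDP1-#2 and 49.1 to 79.0 TPM with shScr, and the groups overlapped. The overlap came from shScr replicate 3, at 79.0 TPM, since the other two shScr libraries, at 49.1 and 51.4 TPM, lay below all 6 knockdown libraries. The sum did not pass the test with shCTDP1-#1 (log2 change 0.15, SE 0.18, limma adjusted p = 0.52) or with shCTDP1-#2 (log2 change 0.14, SE 0.18, adjusted p = 0.52). Without shScr replicate 3 the sum passed with shCTDP1-#1 (log2 change 0.36, SE 0.13, limma adjusted p = 0.043) and with shCTDP1-#2 (log2 change 0.36, SE 0.13, adjusted p = 0.043). With each other library left out it did not pass, and without shCTDP1-#1 replicate 1 its log2 change with shCTDP1-#1 was -0.02. The call of SERPINB8 rests on its own value as deposited, and the result for the sum turned on 1 library; the part of the division of reads in it was not tested.

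SERPINB2, known as plasminogen activator inhibitor type 2 and as an inhibitor of urokinase, was higher with shCTDP1-#1. It was at 27.85, 25.46 and 27.39 TPM in the shCTDP1-#1 libraries, at 21.78, 20.57 and 22.78 TPM in the shCTDP1-#2 libraries, and at 23.16, 22.81 and 21.48 TPM in the shScr libraries. The shCTDP1-#1 libraries lay above all others, while the shCTDP1-#2 and shScr libraries overlapped. How many tested intervals separated in this way was not counted. With shCTDP1-#1 the log2 change was 0.25 (SE 0.06, limma adjusted p = 0.0062). With shCTDP1-#2 it was -0.05, with a 95% interval from -0.19 to 0.09 and a limma adjusted p of 0.53; under median-of-ratios scaling, a scaling that sets the bulk of changes near 0, it was -0.18 and passed the test (adjusted p = 0.025). That scaling moved the median log2 change of all tested intervals with shCTDP1-#2 to 0.01, against 0.13 with TPM as deposited. SERPINB2 shares 6717 bases with SERPINB10, and summing both left its calls as they were.

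The balance of the 2 abundant serpins differed between the groups in the values as deposited. The ratio of SERPINB2 to SERPINB8 TPM was 0.539 to 0.580 with shCTDP1-#1, 0.357 to 0.407 with shCTDP1-#2 and 0.585 to 0.660 with shScr. The 3 ranges did not overlap, though those of shCTDP1-#1 and shScr came close, at 0.580 and 0.585. The share of pairs of tested intervals whose ratios separated in this way was not counted. A ratio within a library does not depend on how the library was scaled. The ratio shows unequal change of the pair and not which of them changed. With the overlapping interval added to SERPINB8, the ratio was 0.342 to 0.492 with shCTDP1-#1, 0.303 to 0.355 with shCTDP1-#2 and 0.272 to 0.471 with shScr, and these ranges overlapped.

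SERPINB7, also called megsin and known from kidney mesangial cells and upper epidermis, was low and moved apart between the hairpins. It was at 2.66, 2.04 and 1.73 TPM with shCTDP1-#1, at 0.36, 0.37 and 0.24 TPM with shCTDP1-#2, and at 1.28, 0.32 and 1.04 TPM with shScr. The shCTDP1-#1 libraries lay above all others, and the shCTDP1-#2 libraries overlapped shScr replicate 2. How many tested intervals separated in this way was not counted. It passed the filter of at least 1 TPM in at least 3 libraries only with the shCTDP1-#1 libraries, where it was highest, beside shScr replicates 1 and 3. Its differences from shCTDP1-#1 were thus tested through the group where it is high, and the counts of the window include it. The log2 change was 0.77 (SE 0.22, limma adjusted p = 0.011) with shCTDP1-#1 and -0.47 (SE 0.22, adjusted p = 0.085) with shCTDP1-#2. The second value depended on shScr replicate 2: without it the log2 change was -0.71 (limma adjusted p = 0.011), and without shScr replicate 1 it was -0.31 (adjusted p = 0.28). With a pseudocount of 0.1 TPM, which weighs changes of low values more, the log2 change was 1.34 with shCTDP1-#1 (limma adjusted p = 0.028) and -1.06 with shCTDP1-#2 (adjusted p = 0.072).

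**Figure D2:**
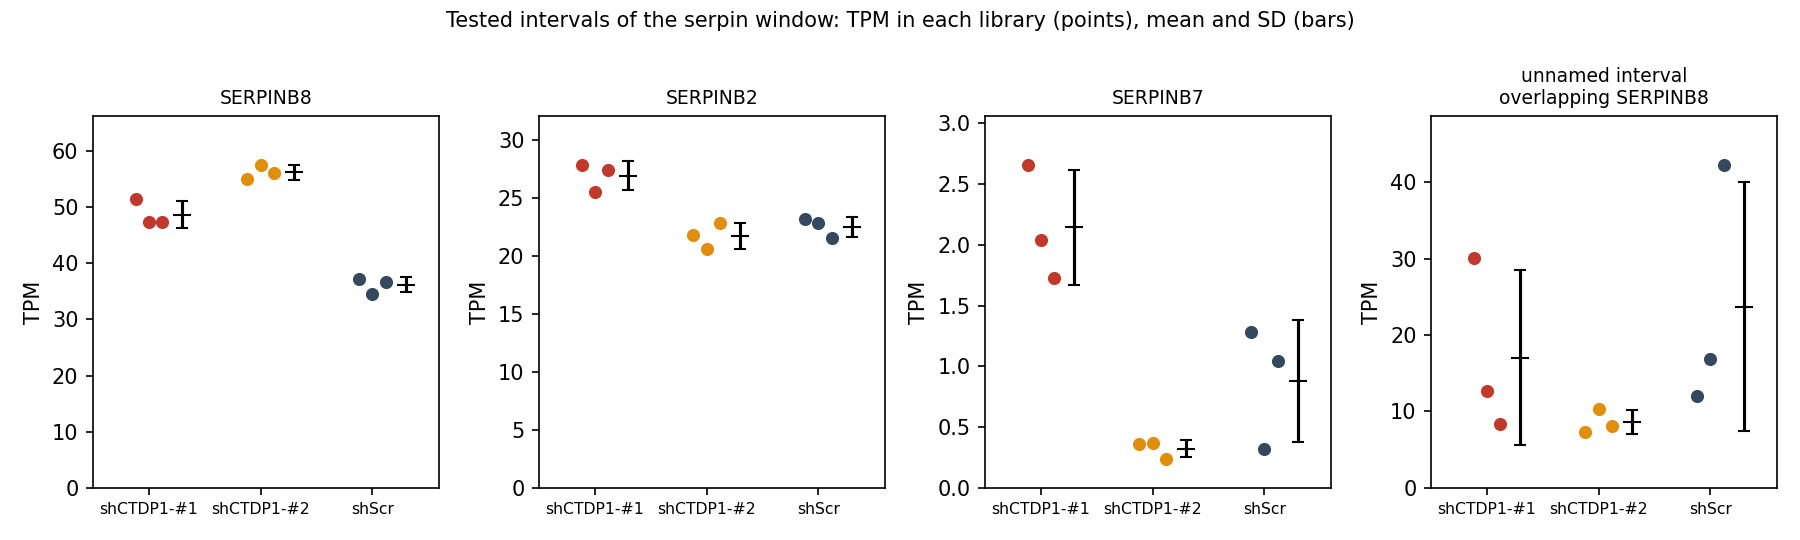
TPM of the 4 tested intervals of the window in each library (points, by hairpin), with the mean and SD of each group beside them; each panel has its own vertical axis from 0. SERPINB8 is higher in all 6 knockdown libraries than in shScr, SERPINB2 and SERPINB7 are highest with shCTDP1-#1, and the unnamed interval scatters between 7.35 and 42.32 TPM.

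Against shScr, 3 of the 4 tested intervals of the window (SERPINB8, SERPINB2 and SERPINB7) rose with shCTDP1-#1 and 0 fell, at a limma adjusted p under 0.05. Over all tested intervals 35.4% rose and 27.7% fell, 63.1% in all. With shCTDP1-#2, 1 of the 4 (SERPINB8) rose and 0 fell, where 39.5% of all tested intervals rose and 24.6% fell, 64.0% in all. The median log2 change of the 4 was 0.33 with shCTDP1-#1 and -0.26 with shCTDP1-#2, against 0.07 and 0.13 over all tested intervals. With 4 intervals, these counts describe the window and set it apart from nothing.

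Between the hairpins, SERPINB7 and SERPINB2 were lower with shCTDP1-#2 than with shCTDP1-#1, and SERPINB8 was higher. SERPINB7 averaged 0.323 ± 0.072 TPM with shCTDP1-#2 and 2.14 ± 0.47 TPM with shCTDP1-#1 (SD, n = 3 each), a log2 difference of -1.24 (SE 0.22, limma adjusted p = 0.00088), or -2.40 with a pseudocount of 0.1 TPM (adjusted p = 0.0017). SERPINB2 averaged 21.7 ± 1.1 TPM with shCTDP1-#2 and 26.9 ± 1.3 TPM with shCTDP1-#1, a log2 difference of -0.30 (SE 0.06, limma adjusted p = 0.0030). SERPINB8 averaged 56.1 ± 1.3 TPM with shCTDP1-#2 and 48.6 ± 2.4 TPM with shCTDP1-#1, a log2 difference of 0.20 (SE 0.05, limma adjusted p = 0.0076). The SERPINB8 difference did not pass after upper-quartile scaling (log2 difference 0.14, limma adjusted p = 0.058) or median-of-ratios scaling (0.13, adjusted p = 0.075), and summed with the overlapping interval it was -0.0010 (adjusted p = 0.997). Thus 1 of 4 intervals was higher and 2 were lower with shCTDP1-#2, where 30.2% of all tested intervals were higher and 20.0% lower, 50.2% in all.

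Neighbours outside the window were tested as the surrounding of the cluster, within 500000 bases on either side. Of 12 flanking intervals 4 passed the filter, all on the side of SERPINB5, and the flank beyond SERPINB8 was listed at 0 in every library. With shCTDP1-#1, 3 of these 4 rose and 1 fell, where 35.4% of all tested intervals rose and 27.7% fell. With shCTDP1-#2, 3 of these 4 rose and 0 fell, where 39.5% of all tested intervals rose and 24.6% fell. The interval from 61034561 to 61048862 was at 8.10 ± 0.74 TPM with shCTDP1-#1, 9.01 ± 1.48 TPM with shCTDP1-#2 and 0.750 ± 0.201 TPM with shScr (SD, n = 3 each), and its log2 change was 2.38 with shCTDP1-#1 (SE 0.14, limma adjusted p = 2.0e-07) and 2.51 with shCTDP1-#2 (SE 0.14, adjusted p = 1.4e-07). It was under 1 TPM in all 3 shScr libraries and passed the filter only through the 6 knockdown libraries, so it had to differ to be tested, and the counts of the flank include it. The interval from 60994959 to 61034743, whose end overlaps it, was at 108 ± 9 TPM with shCTDP1-#1, 127 ± 8 TPM with shCTDP1-#2 and 73.6 ± 2.9 TPM with shScr. The interval from 60790579 to 60987361 was lower with shCTDP1-#1, at 2.48 ± 0.43 TPM, against 4.83 ± 0.30 TPM with shScr. The abundant neighbours and the abundant serpins lay at opposite ends of a stretch of near-silent serpins.

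**Figure D3:**
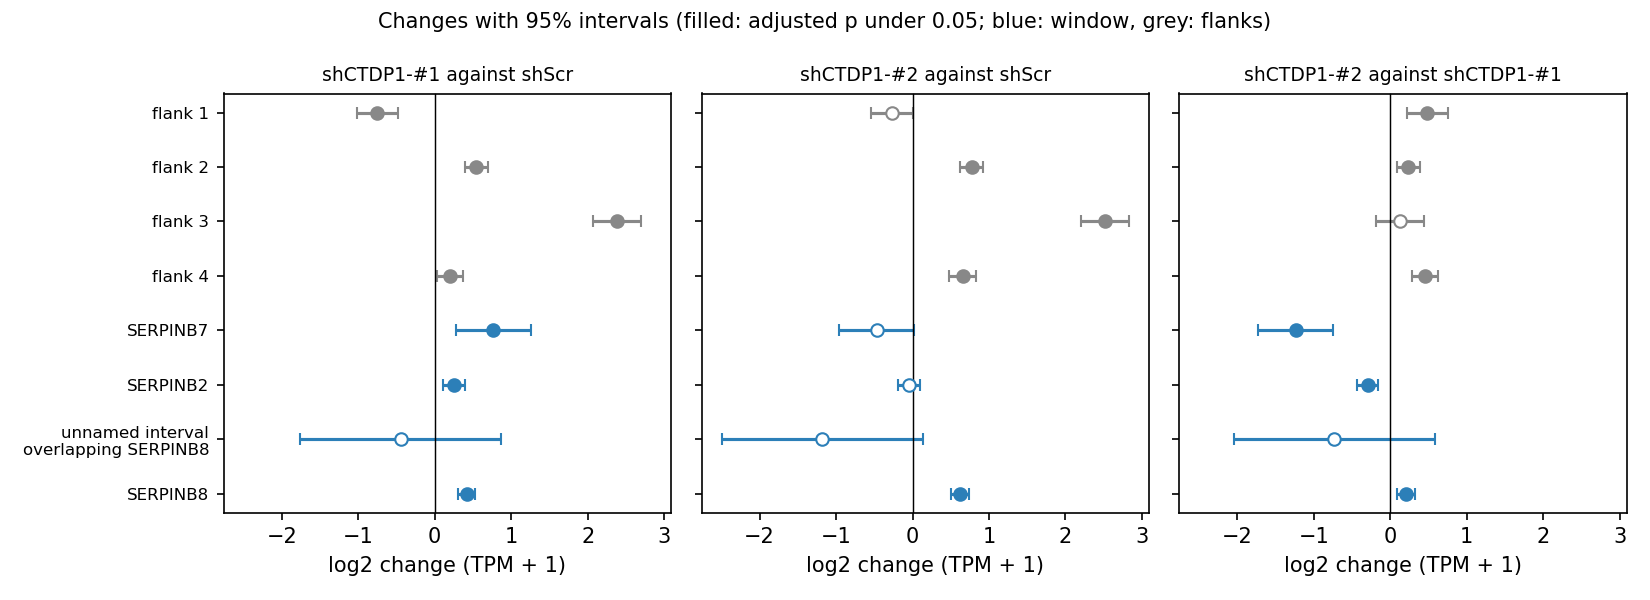
Log2 change of TPM + 1 with its 95% interval for the 4 tested intervals of the window (blue) and the 4 tested flanking intervals (grey, flank 1 to flank 4 by position) in the 3 comparisons; filled points had a limma adjusted p under 0.05. SERPINB7 and SERPINB2 lie to the right of 0 with shCTDP1-#1 and to the left in the comparison of shCTDP1-#2 with shCTDP1-#1, and flank 3, which passed the filter through the knockdown libraries alone, has the largest changes against shScr of those drawn.

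The squamous epithelial serpins of the proximal part were near 0 in all groups. SERPINB3 and SERPINB4, the squamous cell carcinoma antigens, ranged from 0 to 0.12 TPM and from 0 to 0.58 TPM over the 9 libraries. SERPINB13 (headpin), a cathepsin inhibitor of skin, was listed at 0 in all 9 libraries. SERPINB12 was above 0 in 1 library, at 0.08 TPM with shCTDP1-#1, and SERPINB11 in 2, both at 0.09 TPM with shCTDP1-#1. The depth of the libraries is unknown because TPM keeps no total count, so a value of 0 cannot be turned into a limit.

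SERPINB5 and SERPINB10 were also below 1 TPM, SERPINB5 above 0 in 6 and SERPINB10 in 5 of the 9 libraries. SERPINB5, whose loss is known from invasive breast cancer, was at 0, 0 and 0.03 TPM with shCTDP1-#1, at 0.24, 0.11 and 0.31 TPM with shCTDP1-#2, and at 0.03, 0 and 0.08 TPM with shScr. All 3 shCTDP1-#2 libraries lay above the other 6, by little, at a lowest value of 0.11 TPM against 0.08 TPM. The share of low intervals that separated in this way was not counted. SERPINB10 (bomapin), known from blood-forming cells, was at 0.48, 0.09 and 0.32 TPM with shCTDP1-#1, at 0.10, 0 and 0.05 TPM with shCTDP1-#2, and listed at 0 in all 3 shScr libraries. Both were below the filter and were tested only in a fit with no filter, where SERPINB5 had a log2 change of 0.23 with shCTDP1-#2 (SE 0.07, limma adjusted p = 0.034) and SERPINB10 one of 0.36 with shCTDP1-#1 (SE 0.11, adjusted p = 0.027). SERPINB10 entered that fit through knockdown libraries alone, so it had to differ from shScr to be tested. It shares 6717 bases with the far more abundant SERPINB2, and the part of reads divided between them was not tested. More intervals were above 0 in the knockdown libraries in general, 22043 to 22636 with shCTDP1-#1 and 21714 to 22236 with shCTDP1-#2, against 19688 to 20208 with shScr; the part of that in these low values was not tested. The 4 unnamed intervals were 1 that overlaps SERPINB8 and 3 others, which were listed at 0 in every library.

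**Figure D4:**
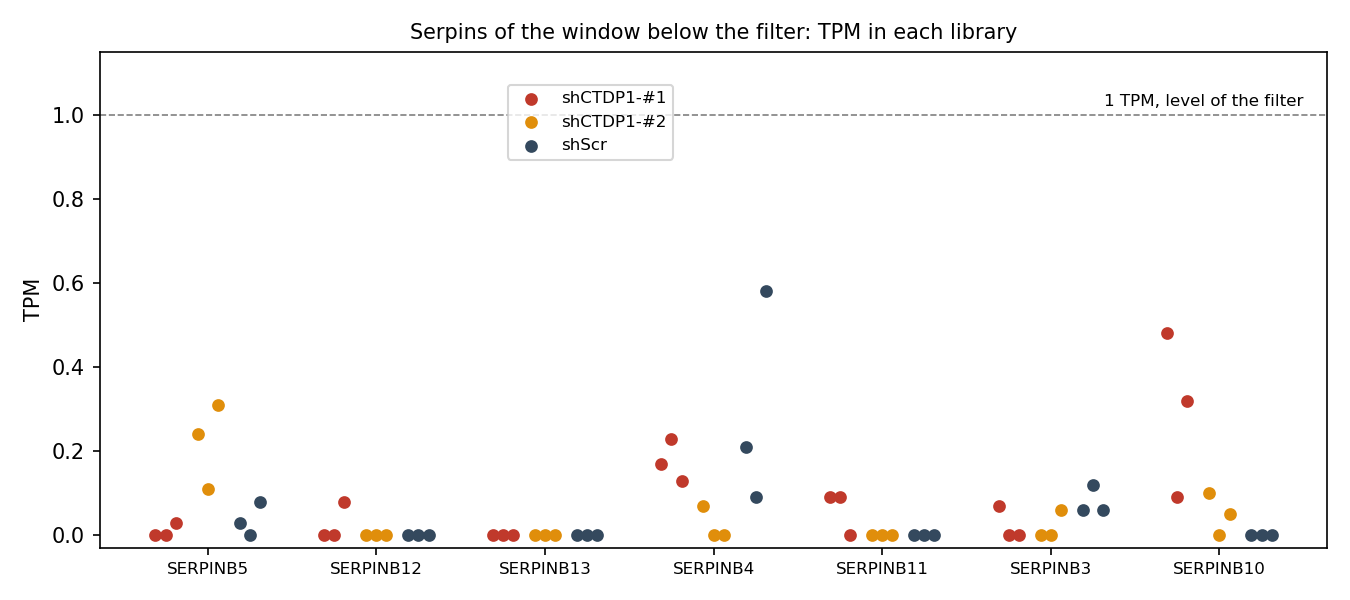
TPM of the 7 serpins that stayed below the filter of 1 TPM (dashed line), 1 point per library and coloured by hairpin. The 3 shCTDP1-#2 libraries are the highest for SERPINB5, at 0.11 to 0.31 TPM against at most 0.08 TPM in the others. The shCTDP1-#1 libraries include the highest values of SERPINB10, and SERPINB13 is at 0 throughout.

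SERPINB3 and SERPINB4 are near-identical copies, so their reads can be divided between them and their separate levels are uncertain. Their longest coding sequences in GENCODE v29, 1170 bases each, were 95.2% identical over the aligned bases, and the next most alike pair of the cluster, SERPINB13 and SERPINB3, was 68.5% identical. SERPINB2 and SERPINB8, the abundant pair, were 66.2% identical. Their promoter windows in RefSeq (GRCh38.p14, minus strand) are shown to make the likeness visible, with the 4 of 300 bases that differ in capitals.
SERPINB3, chr18:63661844-63662143: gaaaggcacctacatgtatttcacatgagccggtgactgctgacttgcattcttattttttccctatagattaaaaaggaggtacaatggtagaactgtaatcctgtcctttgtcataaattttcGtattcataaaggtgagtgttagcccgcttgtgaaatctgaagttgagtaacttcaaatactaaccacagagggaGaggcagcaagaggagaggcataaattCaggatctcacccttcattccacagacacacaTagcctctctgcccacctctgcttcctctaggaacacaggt
SERPINB4, chr18:63644207-63644506: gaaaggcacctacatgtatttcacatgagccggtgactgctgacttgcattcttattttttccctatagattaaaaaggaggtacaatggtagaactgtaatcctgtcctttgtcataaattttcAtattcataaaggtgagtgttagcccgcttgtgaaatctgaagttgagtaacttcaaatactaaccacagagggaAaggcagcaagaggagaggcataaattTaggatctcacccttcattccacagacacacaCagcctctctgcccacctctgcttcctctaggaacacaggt

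The intervals whose pattern over the 9 libraries was most like that of SERPINB8 lay on other chromosomes. They were the interval on chromosome 14 from 104378625 to 104394606 (Pearson r of log2 values 0.992, n = 9 libraries) and that on chromosome 1 from 161284047 to 161332984 (r = 0.991). The first was at 190.96, 182.86 and 178.13 TPM with shCTDP1-#1, 198.39, 210.36 and 203.47 TPM with shCTDP1-#2 and 141.62, 140.88 and 149.91 TPM with shScr. Such likeness was common, with r of at least 0.95 in 684 intervals. These were searched among the 15011 tested intervals, less those of the window and of the X and Y chromosomes. The libraries fall in the same 3 groups for every interval, so differences between the groups enter r. For deviations from the group means, r was 0.752 for the chromosome 14 interval and 0.695 for the chromosome 1 interval. Both intervals were picked for their high r over these same libraries, which favours high values here too. The values of other intervals were not looked at, so no conclusion is drawn from them.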

How the data were processed

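RNA was sequenced from 9 libraries, 3 per hairpin. STAR, RSEM and the build hg19 are named in the submitters' processing notes; their versions and the annotation are not given in the sources used here. Each deposited file holds 1 value per interval, taken as TPM because the values of every library sum to the same fixed total. Files were joined on coordinates, and 2246 of 57773 rows were dropped because their interval occurs more than once (0.355% to 0.391% of the TPM). The test took intervals that reached 1 TPM in 3 or more libraries: log2(TPM + 1) was fitted with limma 3.58.1 (R 4.3.3; trend, robust), 1 fit of 9 libraries with 6 residual degrees of freedom, two-sided, with Benjamini-Hochberg adjustment over all 15011 tested intervals and a threshold of 0.05. The fit was tried on simulated data with independent noise and changes in few intervals of 1 group, none of low abundance. In the deposited data 63.1% of tested intervals were called with shCTDP1-#1. The simulation thus does not cover such broad change, or low intervals such as SERPINB7. Fold changes on this scale understate changes of low intervals. Every interval of the window was described, and of others the 2 most correlated with the most abundant. Coding sequences were aligned with Biopython 1.88. The members, lists and tests were chosen with earlier results of these data known. Lists that need gene names were not analysed here. Alternatives were a pseudocount of 0.1 TPM, no filter, other scalings, a replicate block, fits of 2 groups, and leaving out each library.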

Additional observations from a re-analysis of the deposited data

Results flagged for a closer look

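The hairpins differed in their change from shScr for 3 of the 4 tested intervals of the window, by the test of shCTDP1-#2 against shCTDP1-#1 itself. The log2 difference was -1.24 for SERPINB7 (limma adjusted p = 0.00088), -0.30 for SERPINB2 (adjusted p = 0.0030) and 0.20 for SERPINB8 (adjusted p = 0.0076). In each case all 3 shCTDP1-#2 libraries lay on 1 side of all 3 shCTDP1-#1 libraries. The share of all tested intervals separated in that way was not counted. The SERPINB8 difference did not pass after upper-quartile scaling (0.14, limma adjusted p = 0.058), after median-of-ratios scaling (0.13, adjusted p = 0.075) or when summed with the interval that overlaps it (-0.0010, adjusted p = 0.997), which leaves 2 of the 4 there. Differences between the hairpins passed the same test in 50.2% of all tested intervals. SERPINB7 passed the filter only with the shCTDP1-#1 libraries, where it was highest. The level of CTDP1 with each hairpin was not analysed here.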

How the results depend on the processing

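Summing overlapping intervals, also with a library left out, was chosen after seeing the data; the other alternatives were planned. SERPINB8 summed with the overlapping interval had log2 changes of 0.15 with shCTDP1-#1, 0.14 with shCTDP1-#2 and -0.0010 between the hairpins, none past the threshold, and the summed interval varied more between libraries. Between the hairpins SERPINB8 was at 0.14 after upper-quartile and 0.13 after median-of-ratios scaling, neither past the threshold, which left 0 higher calls there under each. SERPINB2 with shCTDP1-#2 was at -0.18 and passed after median-of-ratios scaling, which gave 1 lower call. With no filter, 2 intervals were higher with shCTDP1-#2 against shScr and 2 between the hairpins, since SERPINB5 entered the test, and 4 with shCTDP1-#1, since SERPINB10 entered it. The share called over all 28927 intervals of that fit was not counted, so these counts have nothing to be set beside. With a pseudocount of 0.1 TPM, SERPINB7 was at 1.34 with shCTDP1-#1, -1.06 with shCTDP1-#2 and -2.40 between the hairpins. SERPINB2 with shCTDP1-#2 was at -0.12 after upper-quartile scaling, not past the threshold.

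With 1 library left out at a time, the range was -0.71 to -0.31 for SERPINB7 with shCTDP1-#2 (limma adjusted p from 0.011 to 0.28), with 0 to 1 lower calls there, and -0.93 to 0.06 for the unnamed interval with shCTDP1-#1, the value of 0.060 being that without shScr replicate 3. Values of the unnamed interval lay between -1.54 and -0.67 with shCTDP1-#2, and between -1.11 and -0.25 comparing the hairpins. The sum of SERPINB8 and that interval lay between -0.018 and 0.36 with shCTDP1-#1, between 0.021 and 0.36 with shCTDP1-#2, and between -0.11 and 0.16 comparing the hairpins; the last turned to higher without shCTDP1-#1 replicate 1 (0.16), shCTDP1-#2 replicate 1 (0.026) or shCTDP1-#2 replicate 3 (0.0056). For SERPINB8 it gave 0.38 to 0.44 and 0.59 to 0.64 with the hairpins, and for SERPINB2 0.22 to 0.29 with shCTDP1-#1. The causes of these shifts were not tested.

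Replicate numbers recur in each group. Across groups, libraries with equal numbers had deviations from their group means that correlated between -0.0066 and 0.053. For libraries with other numbers the range was -0.046 to 0.024, so the ranges overlapped and all values were small. For 8 of the 9 the closest library of another group bore the same number, which is seen in the data and not stated by the design. A fit with a replicate block called 3 intervals of the window higher for shCTDP1-#1, 1 for shCTDP1-#2 and, between the hairpins, 1 higher and 2 lower, as without the block. Each replicate number occurs once in each group, so the block cannot alter a log2 change. Only the spread and the calls could differ.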
